A study of Mus musculus with 21 samples.

Results

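The comparison described here sets rostral cerebral cortex of Small-eye (Sey) mutant mouse embryos against that of their wild type littermates. It rests on 7 of the 21 arrays of the series, chosen by the genotype labels: 4 of Pax6 Sey mutants and 3 of littermate controls, all taken at embryonic day 14 on a C57BL/6J x DBA/2J (B6D2F1) background. The other 14 arrays belong to lines with other mutations of Pax6 on another strain. They were used only in an alternative fit and in an alternative normalization. The animals were untreated, and the labels call the arrays biological replicates. The labels give no allele dose for the Sey mutants, do not state whether tissue of several embryos was pooled, and state no test.

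Pax6 binds DNA through its paired domain and its homeodomain and regulates transcription. In the developing cortex it is made by radial glia, the progenitors that line the ventricle and give rise to the neurons of the cortical plate, and it is known for setting the border between the cortex and the ventral forebrain (subpallium). The Sey allele carries a premature stop that truncates the protein, while the transcript can still be made. Small eyes, or no eyes, gave the allele its name.

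The targeted gene did not serve as a check of the labels, since the transcript is not removed by a stop codon. On the log2 scale of the deposited values Pax6 read 11.18, 11.34, 10.94 and 11.16 in the Sey mutants, against 10.60, 10.63 and 10.55 in the littermate controls. All mutant arrays were above all control arrays, with a log2 change of 0.56 ± 0.09 (SE; adjusted p = 0.00297, limma). A different gene separated the groups more widely. Rlbp1, whose product binds retinaldehyde and is best known from the retina, read 4.43, 4.60, 4.45 and 4.28 in the Sey mutants, against 10.54, 10.43 and 10.52 in the controls. Every mutant array was at background level and the fall was at least 34.5-fold (adjusted p = 4.08e-09). Background level means here that every array of a group lay at or below the 40th percentile of its own probe sets, a value between 5.37 and 5.42 in these arrays. The labelled tissue was checked with genes of cortical progenitors chosen after their values were seen. Counts of their marker list, given last, are to be read against 10.7% of all tested genes that rose and 9.13% that fell. Emx1, a homeobox gene of the dorsal telencephalon, averaged 9.30 ± 0.13 in the mutants and 9.39 ± 0.06 in the controls (SD, n = 4 and 3) and was not called (adjusted p = 0.429). Lhx2, a LIM homeobox gene of the cortical field, averaged 12.76 ± 0.13 in the mutants and 12.36 ± 0.03 in the controls. It rose by 0.40 ± 0.07 (adjusted p = 0.00599). In the marker list of cortical progenitors, to which both belong, 5 of 14 tested members rose and 2 fell, 4 and 1 with the term for sex, the falls being those of Slc1a3 and Nr2e1 described below.

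The arrays were alike in overall level and differed in the sex of the embryos. Array medians lay between 6.03 and 6.07, and arrays of one group correlated across probe sets with r between 0.995 and 0.997, against 0.991 to 0.993 between groups. Xist, which marks a silenced X chromosome, was high in mutant replicates 1, 3 and 4 and near background in mutant replicate 2 and in all 3 controls, and the Y-linked Eif2s3y showed the reverse. The mutants were thus 3 females and 1 male, and the controls 3 males. The size of the called changes was similar in each mutant array: over called genes the median change in the called direction was 0.412, 0.394, 0.412 and 0.421 in replicates 1 to 4, replicate 2 being the male. The same arrays made the calls, so that their shared direction was largely fixed beforehand. With a term for sex the fit compares that male with the 3 male controls, and such values are given below where they end a call. As a sign of RNA quality, the 3' minus 5' difference of the Gapdh control probe sets averaged -0.15 in both groups, with an exact two-sided permutation p of 0.943 (Actb 0.314), where 0.0286 is the smallest p these group sizes allow.

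Of 13311 genes tested, 2643 changed at an adjusted p under 0.05, which is 19.9% of them. Higher levels in the mutants were found for 1428 genes (10.7%) and lower levels for 1215 (9.13%). Most changes were small: 109 genes rose (0.819%) and 117 fell (0.879%) by more than 2-fold. All 4 mutant arrays lay above all 3 control arrays for 2261 genes (17%) and below them for 1954 (14.7%). The median log2 change over all tested genes was 0.001. The sign of the change in the male mutant was the same for all 2643 called genes, and 948 of them were also called with the term for sex. Among the 226 called genes that changed by more than 2-fold, 207 were. The male is itself among the 4 mutant arrays that made the calls, so that the sign of its change was largely fixed beforehand. In whole tissue, fewer cells of a type and less RNA per cell cannot be told apart, and this holds for each result below.

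**Figure D1:**
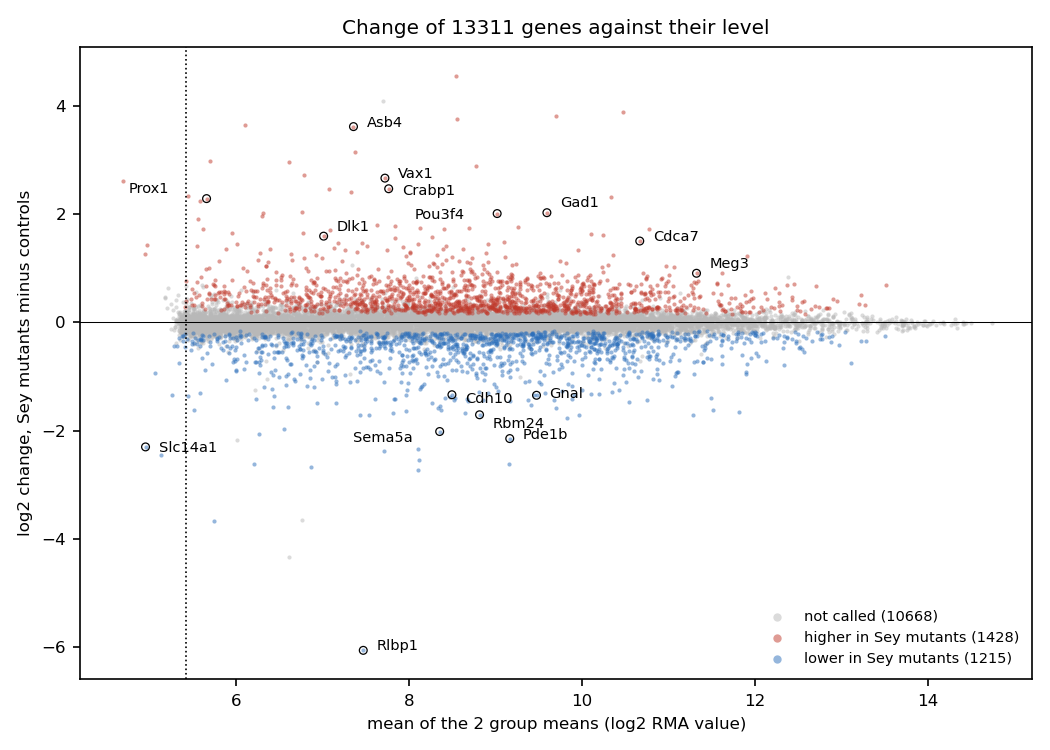
Each point is 1 gene, placed by the mean of the 2 group means (x axis, log2 RMA value) and by the log2 change of Sey mutants minus littermate controls (y axis). Red points are the 1428 genes that rose, blue points the 1215 that fell and grey points those not called, circles mark genes named in the text, and the dotted line is the highest level of background. Rlbp1 stands apart at the bottom, with a fitted change beyond all other genes.

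The rankings that follow leave out a list of 83 genes whose change in these arrays was known beforehand, among them the Dlx, Gsx and proneural genes, Olig2, Sp8, Wls, Asb4 and Cxcl12, some of which changed more than the genes named here. Among the remaining genes whose arrays were not all at background in either group, the largest rise was that of Vax1, a homeobox gene of the ventral forebrain and optic stalk. Vax1 read 9.16, 8.44, 9.63 and 8.96 in Sey mutants, against 6.39, 6.32 and 6.46 in controls. The lowest mutant array was the male, and it still lay far above the highest control (log2 change 2.66 ± 0.23, adjusted p = 0.000141). Crabp1, a cytosolic carrier of retinoic acid, read 8.63, 9.31, 8.63 and 9.41 in Sey mutants, against 6.49, 6.69 and 6.41 in controls. Here the male and mutant replicate 4 were the highest, and the log2 change was 2.47 ± 0.21. Pbx3, a homeobox cofactor, read 11.49, 10.80, 12.03 and 11.64 in mutants, against 8.67, 9.22 and 9.63 in controls, so that it was abundant in both groups and the groups did not overlap (log2 change 2.32 ± 0.30, adjusted p = 0.000968). Angpt1, a ligand of the endothelial Tie2 receptor, rose by 2.46 ± 0.29 although its controls were spread between 5.23 and 6.49.

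Genes of GABAergic neurons made up another share of the largest rises. GABA is made by the glutamate decarboxylases Gad1 and Gad2 and loaded into vesicles by the transporter Slc32a1. Gad1 read 10.45, 10.16, 11.14 and 10.66 in Sey mutants, against 8.41, 8.80 and 8.53 in controls, and Gad2 read 8.68, 8.45, 9.63 and 9.25 in mutants, against 6.90, 7.20 and 7.65 in controls. For both the 2 lowest mutant arrays were replicates 1 and 2 and the highest was replicate 3. The log2 changes were 2.02 ± 0.21 for Gad1 and 1.75 ± 0.29 for Gad2, whose call ended with the term for sex (adjusted p = 0.112). Slc32a1 rose by 1.80 ± 0.18 on the probe set with the highest mean, which was the 1 of its 3 kept probe sets that was called. Abat, the enzyme that breaks GABA down, rose by 0.86 ± 0.12. In the list of transmitter synthesis and vesicle loading, to which these genes belong, 6 of 15 tested members rose and 2 fell. The shares of all tested genes were 10.7% and 9.13%. Other markers of the subpallium moved with the GABA genes. Of 20 tested members of that marker list 11 rose and 2 fell, to be read against the same shares. In 2 of the 20, and in 1 of the 15 members of the transmitter list, every control array was at background. Such members passed the filter through the mutant arrays, which largely set the direction of their change. The mean level over the members of the marker list lay between 8.30 and 8.69 in the mutant arrays, against 6.97 to 7.22 in the controls. The falls numbered 1 without control replicate 3, and with the term for sex 8 rose and 1 fell. The part of such cells in these rises was not tested.

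Transcription factors of several families were among the other large rises. Pou3f4, a POU factor of the developing forebrain encoded on the X chromosome, read 10.30, 9.69, 10.08 and 10.02 in Sey mutants, against 7.98, 8.14 and 7.91 in controls. The male mutant was the lowest of the 4 and lay well above every male control (log2 change 2.01 ± 0.13, adjusted p = 4.34e-05). Tshz1, a zinc finger factor of striatal and olfactory bulb neurons, read 11.53, 11.41, 11.91 and 11.68 in mutants, against 9.82, 10.03 and 9.87 in controls, and rose by 1.73 ± 0.12. Msx3, a homeobox gene known from the dorsal neural tube, rose by 1.71 ± 0.08, and Ptf1a, a basic helix-loop-helix factor of GABAergic lineages, by 1.97 ± 0.19. Ptf1a read 7.43, 7.48, 6.96 and 7.27 in mutants, against 4.92, 5.71 and 5.30 in controls, whose arrays straddled the level of background. Sox2ot, the long noncoding transcript that overlaps Sox2, rose by 1.74 ± 0.17. Id3, an inhibitor of basic helix-loop-helix factors, rose by 1.76 ± 0.22. Depdc7 rose by 2.03 ± 0.13 (adjusted p = 4.36e-05), and it lies on chromosome 2 with 19 annotated genes, 7 of them protein-coding, between it and Pax6. The uncharacterized transcript 4930442E04Rik rose by 2.02 ± 0.29, a call that ended with the term for sex (adjusted p = 0.0655).

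The largest falls of that ranking were of enzymes, receptors and guidance molecules. Pde1b, a calmodulin-dependent phosphodiesterase that breaks down cyclic nucleotides, read 8.27, 8.02, 7.99 and 8.08 in Sey mutants, against 10.19, 10.29 and 10.22 in controls. Both groups were tight and far apart (log2 change -2.15 ± 0.07, adjusted p = 5.58e-06). Sema5a, a guidance molecule with thrombospondin repeats, read 7.05, 7.62, 7.42 and 7.29 in mutants, against 9.23, 9.24 and 9.61 in controls, and fell by 2.02 ± 0.14. Nrn1, or neuritin, which promotes outgrowth of neurites, read 9.22, 9.14, 8.86 and 9.20 in mutants, against 10.74, 10.85 and 10.87 in controls, with no overlap and a log2 change of -1.71 ± 0.09. Rbm24, an RNA-binding splicing regulator best known from muscle, read 7.82, 8.02, 8.11 and 7.90 in mutants, against 9.73, 9.60 and 9.67 in controls, and all 4 of its kept probe sets were called in the same direction. Hs3st1, a heparan sulfate sulfotransferase, had the smallest standard error of the 15 largest falls, with 8.71, 8.72, 8.56 and 8.59 in mutants, against 10.19, 10.14 and 10.17 in controls (log2 change -1.52 ± 0.06).

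Sorl1, a sorting receptor of the amyloid precursor protein, fell by 1.68 ± 0.12, with all 3 of its kept probe sets called. Lypd6, which modulates Wnt and nicotinic receptor signalling, fell by 1.62 ± 0.10, and Nav2, a cytoskeletal protein induced by retinoic acid, by 1.64 ± 0.13. Ppp1r1a, an inhibitor of protein phosphatase-1, read 9.01, 8.87, 8.84 and 8.93 in mutants, against 10.38, 10.60 and 10.48 in controls, and fell by 1.58 ± 0.07. The receptors Lpar1, for lysophosphatidic acid, and Prokr1, for prokineticin, fell by 1.54 ± 0.18 and 1.56 ± 0.16. Veph1, known from the ventricular zone, read 5.13, 5.68, 4.59 and 5.52 in mutants, against 7.39, 7.30 and 7.20 in controls, so that its mutant arrays straddled the level of background. Gcg, the precursor gene of glucagon, read 5.53, 5.55, 5.92 and 5.25 in mutants, against 7.26, 7.96 and 7.39 in controls, again close to background in the mutants. Tmem87a, a Golgi membrane protein on chromosome 2, was unlike the rest: it read 8.26, 6.10, 6.19 and 6.16 in mutants, against 8.29, 8.46 and 8.42 in controls. Mutant replicate 1 sat at the level of the controls and the other 3 far below it. The log2 change was -1.71 ± 0.49 (adjusted p = 0.0407), and without replicate 1 it was -2.24 (adjusted p = 1.45e-05). The call was lost with any other array left out (adjusted p up to 0.113) and with the term for sex (adjusted p = 0.117). Zfp874a, a zinc finger gene, read 4.26, 3.58, 5.54 and 5.44 in mutants, against 6.50, 6.55 and 5.91 in controls, with mutants on both sides of background. Its call (log2 change -1.61 ± 0.46) was lost without mutant replicate 1 or any 1 control (adjusted p up to 0.124).

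**Figure D2:**
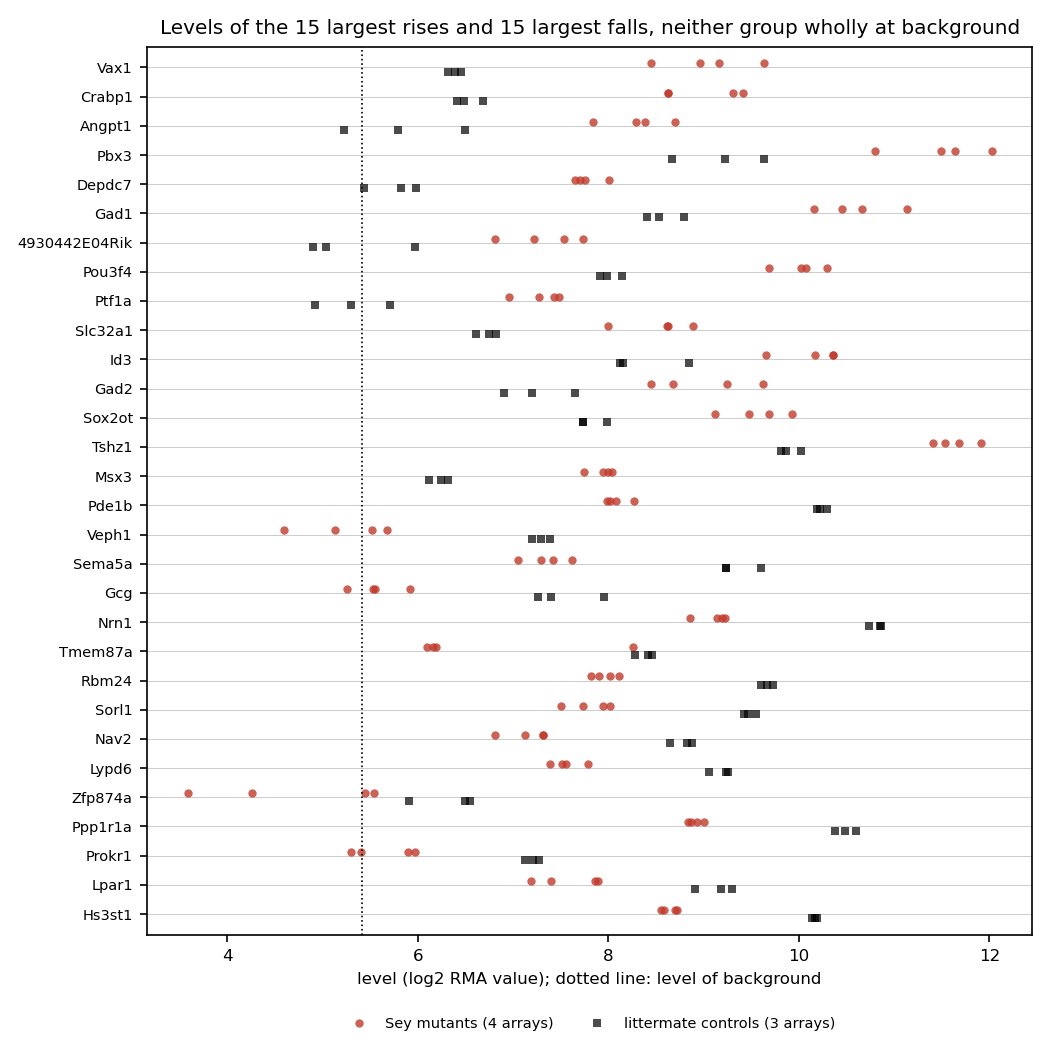
Levels on each array (x axis, log2 RMA value) of the 15 largest rises, from Vax1 to Msx3, and the 15 largest falls, from Pde1b to Hs3st1, outside the list of 83 genes left out of the ranking. Red circles are the 4 Sey mutant arrays, black squares the 3 littermate control arrays and the dotted line is the level of background. The groups are separate in each row, as the rule for these genes asks, and in the row of Tmem87a mutant replicate 1 lies with the controls.

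In 39 called genes whose groups did not overlap, one group was at background level, so only a lower bound of the fold can be given. The controls were at background in 41 tested genes, 20 of them among the 39, and the mutants in 22, 19 of them. Such genes passed the filter through the other group, which largely set the direction of their change. Among the rises outside the genes left out above, the widest bound was that of Prox1, a homeobox gene of the lens, the thalamus and migrating interneurons, which read 6.87, 6.79, 6.76 and 6.78 in Sey mutants, against 4.15, 4.90 and 4.50 in controls. The mutant arrays were nearly equal, and the rise was at least 2.66-fold (adjusted p = 4.34e-05). Slc26a7, an anion transporter, read 6.55, 7.25, 6.23 and 7.07 in mutants, against 5.29, 5.26 and 4.81 in controls, and Stk33, a serine/threonine kinase, read 6.59, 6.62, 6.94 and 6.66 in mutants, against 4.44, 4.15 and 4.82 in controls. These rises were at least 2.61-fold and 2.48-fold. Smaller bounds, between 1.33-fold and 1.98-fold, were found for Ermn, a cytoskeletal protein of oligodendrocytes, Adarb2, a catalytically inactive member of the RNA-editing enzymes, Kcnip4, Insm2, Wif1, Bmp2 and Parp12. Wif1, a secreted inhibitor of Wnt ligands, and Bmp2, a bone morphogenetic protein, were thus at background in the control cortex. The call of Kcnip4 ended with the term for sex (adjusted p = 0.113).

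Among genes that fell to background, Dapp1, an adaptor protein best known from B cells, read 4.95, 4.60, 5.20 and 4.96 in Sey mutants, against 6.21, 6.33 and 6.14 in controls, a fall of at least 1.79-fold (adjusted p = 0.000241). Gna14, a G protein alpha subunit of the Gq class, read 4.86, 4.76, 4.58 and 4.83 in mutants, against 5.76, 6.14 and 6.45 in controls, at least 1.66-fold lower. Slc14a1, the urea transporter that astrocytes make later in life, read 4.16, 3.70, 3.48 and 3.87 in mutants, against 6.11, 5.92 and 6.27 in controls. Its mutant arrays were far below the level of background, so that the bound of 1.64-fold is a low one. Gem, a small GTPase that limits calcium channels, and Syt13, an atypical synaptotagmin, fell by at least 1.46-fold and 1.26-fold, and the chemokine Cxcl14 by at least 1.21-fold, the last not called with the term for sex (adjusted p = 0.0745). Another kept probe set of Cxcl14, with a lower mean, fell by 1.677 ± 0.175 on the log2 scale (adjusted p = 0.000535, limma over all kept probe sets). The number of genes with one group at background turns on where background is set: 13 were found at the 30th percentile and 133 at the 50th.

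In 4 lists of genes that dividing cells use, many members rose and few fell. The lists also hold genes that act in DNA replication and at the mitotic spindle. They cover DNA repair (22 of 28 tested members rose, none fell, median log2 change 0.48), chromatin assembly and heterochromatin (17 of 32 rose, none fell, median 0.24), the centrosome and genes of primary microcephaly (21 of 32 rose, 3 fell, median 0.33) and nucleotide synthesis (11 of 24 rose, none fell, median 0.20). Of all tested genes 10.7% rose. With the term for sex, 15, 9, 11 and 6 members of these lists rose. The 3 falls in the centrosome list became 1 without mutant replicate 2 or 4 or any 1 control, and without mutant replicate 2 there was 1 fall in the chromatin list and 1 in the nucleotide list.

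In the repair list, Rad54l, a motor protein of homologous recombination, read 9.37, 9.20, 9.29 and 9.16 in Sey mutants, against 8.08, 8.21 and 8.15 in controls. The groups were tight and did not overlap (log2 change 1.10 ± 0.07, adjusted p = 3.1e-05), and all 3 kept probe sets were called. Timeless, which protects the replication fork, rose by 0.87 ± 0.05, the DNA ligase Lig1 by 0.68 ± 0.05, the helicase Blm by 0.71 ± 0.06 and Fanca, of the Fanconi anemia complex, by 0.69 ± 0.06. Among chromatin genes the largest rise was of Cdca7, an activator of the remodeller Hells, which read 11.46, 11.24, 11.58 and 11.38 in mutants, against 9.87, 9.90 and 9.98 in controls (log2 change 1.50 ± 0.08). Hells itself rose by 0.66 ± 0.07, Uhrf1, which brings DNA methyltransferase to newly made DNA, by 0.88 ± 0.07, the histone acetyltransferase Hat1 by 0.94 ± 0.07 and the histone chaperone Asf1b by 0.74 ± 0.06.

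Of the centrosome genes, Stil read 9.21, 9.07, 9.28 and 9.22 in Sey mutants, against 8.02, 8.35 and 8.26 in controls, and Plk4, the kinase that starts centriole duplication together with Stil, rose by 0.67 ± 0.06 (Stil 0.99 ± 0.09). Wdr62 and Aspm, both of which are mutated in human microcephaly and act at the spindle pole, rose by 0.93 ± 0.08 and 0.85 ± 0.08, and Tpx2, a spindle assembly factor, by 0.77 ± 0.05. For nucleotides, the ribonucleotide reductase subunits Rrm1 and Rrm2 rose by 0.67 ± 0.05 and 0.69 ± 0.08, the thymidine kinase Tk1 by 0.72 ± 0.08 and the dUTPase Dut by 0.52 ± 0.07. Rrm1 read 11.48, 11.34, 11.38 and 11.33 in mutants, against 10.70, 10.72 and 10.73 in controls, with little spread among the arrays of either group.

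The promoters of these genes were read for the letters that E2F factors, the regulators of genes for the S phase, are known to bind. Of the 20 named members of the 4 lists, 19 had a promoter in the RefSeq table of assembly GRCm38.p6, and 5 held the sequence TTCCCGC or TTGGCGC, on either strand, in the 200 bases before the annotated start. All 5 held the first form. The share of all promoters with a site in this 200-base window was not counted. The 5 promoters are shown because they hold the site. Their genes belong to 4 different steps, nucleotide supply, chromatin remodelling (Cdca7 and Hells), maintenance of DNA methylation and centriole duplication. Each promoter is given 5′ to 3′ on the plus strand, with the site in capitals (GCGGGAA is the site read from the other strand). The windows are chr7:102441495-102441694 for Rrm1, chr2:72476019-72476218 for Cdca7, chr17:56303137-56303336 for Uhrf1, chr19:38930790-38930989 for Hells and chr3:40799751-40799950 for Plk4, all + strand.
Rrm1: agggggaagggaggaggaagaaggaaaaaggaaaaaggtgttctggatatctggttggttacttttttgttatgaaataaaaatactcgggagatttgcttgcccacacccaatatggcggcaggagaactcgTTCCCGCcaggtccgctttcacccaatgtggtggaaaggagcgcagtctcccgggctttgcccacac
Cdca7: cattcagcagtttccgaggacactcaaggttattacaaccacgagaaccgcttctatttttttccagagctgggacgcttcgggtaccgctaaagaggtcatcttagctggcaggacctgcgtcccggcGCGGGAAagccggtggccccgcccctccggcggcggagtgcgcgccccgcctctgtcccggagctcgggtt
Uhrf1: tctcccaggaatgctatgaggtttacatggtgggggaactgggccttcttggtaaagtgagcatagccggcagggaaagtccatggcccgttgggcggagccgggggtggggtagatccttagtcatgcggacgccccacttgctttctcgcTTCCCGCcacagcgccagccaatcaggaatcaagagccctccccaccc
Hells: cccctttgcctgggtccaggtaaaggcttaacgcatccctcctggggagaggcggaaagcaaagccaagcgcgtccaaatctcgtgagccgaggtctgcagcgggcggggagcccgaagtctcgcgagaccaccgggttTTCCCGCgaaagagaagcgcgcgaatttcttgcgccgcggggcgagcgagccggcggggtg
Plk4: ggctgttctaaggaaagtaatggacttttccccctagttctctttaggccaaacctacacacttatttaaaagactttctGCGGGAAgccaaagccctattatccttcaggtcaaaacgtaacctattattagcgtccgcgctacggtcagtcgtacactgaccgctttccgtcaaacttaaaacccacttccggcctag

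The sites begin 67 bases before the start in Rrm1, 71 in Cdca7, 48 in Uhrf1, 61 in Hells and 120 in Plk4. In the whole promoter window of the table, 250 bases before to 50 after the start, TTCCCGC stood in 14.9% of promoters of genes that rose, against 5.62% for genes that fell, 6.95% for genes not called and 4.6% of all promoters in the table. For TTGGCGC the shares were 6.42%, 3.13%, 3.87% and 2.45%. At least 1 of both forms stood in 27 of 72 promoters (37.5%) of the genes that rose in the 4 lists, against 18.6% for the other genes that rose. CCAAT, a box common in promoters of mitotic genes, stood in 42.8% of promoters of genes that rose, 34.7% of genes that fell and 36.9% of genes not called. CAGATG, a form of E-box that proneural factors can bind, stood in 12.2%, 13.7% and 11.8%, and TAATTG, a core that homeodomain factors bind, in 4.68%, 4.77% and 4.74%. TTTGAA, the cell cycle homology region, stood in 18.3%, 11% and 11.1%, against 17.9% of all promoters. Both strands were searched, and these motifs do not contain one another, although ATTGG, the CCAAT box on the other strand, can share letters with TTGGCGC. A match describes letters and no binding was measured; 10703 of the 13311 tested genes had a promoter in the table, and a gene can have several overlapping ones.

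**Figure D3:**
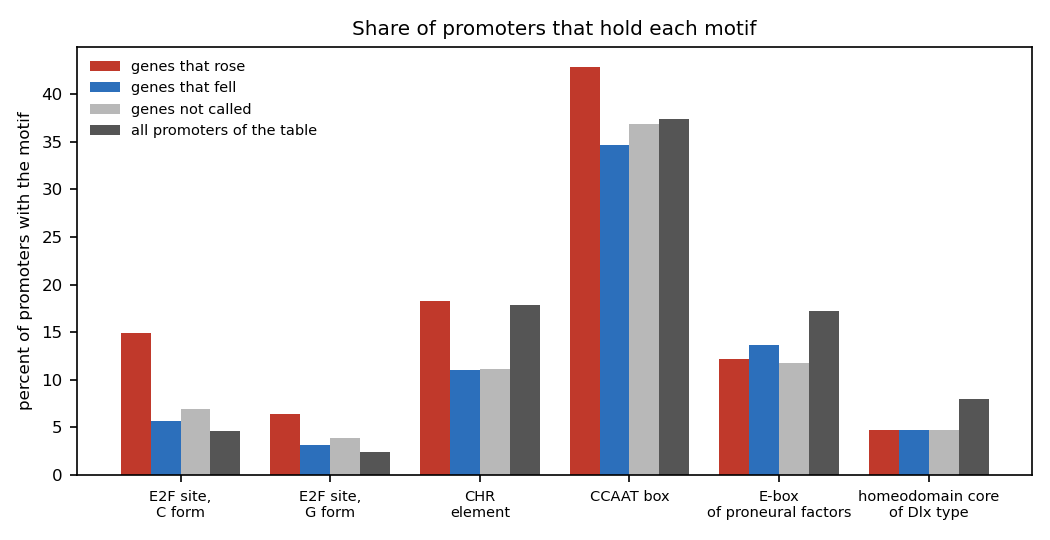
Percent of promoters (y axis) that hold each of 6 motifs on either strand (x axis), for genes that rose, fell or were not called in Sey mutants and for all promoters of the table. The bars of both E2F forms are higher for genes that rose than for the other sets, while those of the E-box and the homeodomain core are alike for tested genes whatever their call.

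Few genes of energy metabolism were called. No member of the oxidative phosphorylation list was called, of 29 tested (median log2 change 0.00), although 19.9% of all tested genes were. Of these all, 10.7% of tested genes rose and 9.13% fell. In the glycolysis list 4 of 19 fell and none rose (median -0.14), but the count was 1 without control replicate 2, and the fall that stood out was that of Aldoc, an aldolase of glia, at -1.66 ± 0.12. Among enzymes of cholesterol and fatty acid synthesis 4 of 25 fell and none rose. Sc5d, a desaturase of cholesterol synthesis, fell by 0.44 ± 0.05, the elongase Elovl6 by 0.45 ± 0.05 and the lipid regulator Srebf1 by 0.28 ± 0.05, the last not called with the term for sex (adjusted p = 0.107). In the serine and one-carbon list 6 of 19 rose (1 with the term for sex, 3 without mutant replicate 4 or control replicate 1) and 2 fell (1 with that term, and 1 without mutant replicate 2 or 4 or control replicate 2 or 3). Psph, the last enzyme of serine synthesis, fell by 0.35 ± 0.05, while Shmt1, which passes a carbon unit from serine to folate, rose by 0.34 ± 0.06 and Ahcy, which clears the product of methylation reactions, by 0.25 ± 0.05. The last 2 were not called with the term for sex (adjusted p = 0.0787 and 0.063). The glycolysis list counted 1 fall and the lipid list 2 with that term.

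Genes in the list of fatty acid binding, lipid transport and astroglial enzymes moved both ways. Id3, described above, belongs to it and rose by 1.76 ± 0.22. Slc1a3, a glutamate transporter, read 7.47, 7.71, 7.50 and 7.49 in Sey mutants, against 9.04, 9.11 and 9.23 in controls. The male mutant was the highest of the 4, and the groups did not overlap (log2 change -1.59 ± 0.08), with all 4 kept probe sets called. Mlc1, a membrane protein of astrocyte end feet, fell by 1.01 ± 0.11, and Fabp3, a fatty acid-binding protein, by 0.56 ± 0.08, which ended with the term for sex (adjusted p = 0.0579). In the list as a whole 8 of 33 tested members rose and 7 fell, 2 and 4 with the term for sex. The rises numbered 3 without control replicate 1, 4 without mutant replicate 2 and 5 without mutant replicate 1 or control replicate 3, and the falls 4 without control replicate 3. Retinoid-handling genes rose in 2 of 17 tested cases and fell in 2 (1 without control replicate 1), and eye and lens genes rose in 2 of 16 (1 without control replicate 1) and fell in 1, shares near the 10.7% and 9.13% of all tested genes.

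Among the called members of the lists of G protein-coupled receptors and of neuropeptides all fell, although most members were not called. Of 29 tested G protein-coupled receptors 8 fell and none rose, and of 25 neuropeptides and granins 6 fell (3 without control replicate 1) and none rose, against 9.13% of all tested genes that fell. Without mutant replicate 1 there was 1 rise among the receptors, and without mutant replicate 3 there was 1 among the peptides. Adra2c, an adrenergic receptor, fell by 0.43 ± 0.07 beside Lpar1. Scg5, a chaperone of the prohormone convertase in secretory granules, read 10.50, 10.49, 10.70 and 10.53 in mutants, against 11.32, 11.33 and 11.29 in controls (log2 change -0.76 ± 0.06). Cbln2, a synaptic organizer, fell by 1.08 ± 0.14. Of the RGS and heterotrimeric G proteins 12 of 41 fell and 5 rose (3 rises without control replicate 1), where 10.7% of all tested genes rose. Gnal, the alpha subunit that couples dopamine and odorant receptors to adenylyl cyclase, read 8.90, 8.71, 8.76 and 8.83 in mutants, against 10.18, 10.22 and 10.03 in controls, and fell by 1.35 ± 0.07 (adjusted p = 1.49e-05). Gng3, a gamma subunit, fell by 0.68 ± 0.07, while another, Gng4, rose: it read 9.35, 8.73, 9.58 and 9.56 in mutants, against 7.76, 7.85 and 8.23 in controls (log2 change 1.35 ± 0.21). In the fit with sex as a term 3 of the receptors, 3 of the peptides and 6 of the RGS and G proteins fell, and 1 of the last rose.

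Ion channels and transmitter receptors split by subunit. Of 26 tested ionotropic receptor subunits 6 rose (3 without control replicate 3) and 8 fell, where 10.7% of all tested genes rose and 9.13% fell. The GABA-A subunit Gabrb2 fell by 0.91 ± 0.10 and the glycine receptor subunit Glra2 by 0.38 ± 0.06. The AMPA receptor subunit Gria3 fell by 0.95 ± 0.13, whereas Gria4 rose by 0.55 ± 0.09 and the serotonin receptor Htr3a, a marker of one class of interneurons, by 0.62 ± 0.10; these 3 calls ended with the term for sex (adjusted p = 0.0617, 0.0581 and 0.0664). Of 25 sodium and calcium channel genes 5 rose and 7 fell. The sodium channel Scn2a read 7.55, 7.45, 7.56 and 7.13 in mutants, against 8.60, 8.78 and 8.26 in controls (log2 change -1.12 ± 0.14), and the calcium channel subunit Cacnb4 fell by 0.69 ± 0.09. The auxiliary subunits Cacna2d2, Cacna2d3 and Cacng5 rose by 0.90 ± 0.11, 0.59 ± 0.07 and 0.94 ± 0.13. Another kept probe set of Cacna2d2 changed by -0.08 (adjusted p = 0.561, limma over all kept probe sets). With sex in the fit, the ionotropic receptors counted 3 rises and 2 falls and the channels 4 rises and 2 falls, so that the excess of falls was not kept.

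In the calcium list 14 of 44 tested members fell and 4 rose (9 falls without control replicate 1), but 5 fell and 5 rose with the term for sex. Camk1d, a calmodulin-dependent kinase of growth cones, averaged 7.16 ± 0.14 in Sey mutants and 8.26 ± 0.04 in controls (SD, n = 4 and 3; log2 change -1.10 ± 0.08). The protein kinases C Prkcb and Prkce fell by 0.89 ± 0.07 and 0.60 ± 0.05 and the calcium release channel Ryr1 by 1.00 ± 0.10. Rcan2, an inhibitor of calcineurin, went the other way and rose by 0.94 ± 0.10. Of 43 cytoskeletal and growth cone genes 12 fell and 4 rose (2 rises without mutant replicate 2, mutant replicate 3 or control replicate 1), among them the actin-binding Ablim1 (-0.70 ± 0.07) and the kinesin Kif5c (-0.60 ± 0.07). The calcium and cytoskeletal counts are to be read against 10.7% of all tested genes that rose and 9.13% that fell. The cytoskeletal list counted 4 falls and no rise with the term for sex.

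Cell adhesion genes fell more often than genes in general. Of 33 tested cadherins and protocadherins 16 fell and 3 rose (median -0.32), and of 56 adhesion proteins with immunoglobulin or leucine-rich domains 22 fell and 6 rose (median -0.24), where 9.13% of all tested genes fell. Cdh10, a cadherin of neurons, fell by 1.34 ± 0.07 (adjusted p = 1.48e-05), and Pcdh7, a protocadherin, by 0.97 ± 0.09. Cdh6, which marks borders between forebrain fields, read 5.96, 5.64, 5.83 and 5.75 in Sey mutants, against 6.99, 7.05 and 7.04 in controls. The mutant arrays lay just above background and far below the controls, and 1 of its 2 kept probe sets was called. Lrrtm3 and Lrrtm2, which organize excitatory synapses, fell by 1.36 ± 0.12 and 0.92 ± 0.07. Negr1, Chl1 and Igsf3, all adhesion molecules of the immunoglobulin family, fell, with log2 changes of -1.03 ± 0.10, -0.95 ± 0.10 and -1.04 ± 0.11. With the term for sex 6 cadherins and 11 of the other adhesion proteins fell, and 2 and 3 rose, against 3.24% of all tested genes that fell and 4.36% that rose in that fit.

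Axon guidance genes moved in both directions within each list. The counts are to be read against 10.7% of all tested genes that rose and 9.13% that fell. Of 30 semaphorins, neuropilins and plexins 9 fell and 5 rose. Sema3a, a repellent for axons that also orients migrating neurons, read 8.08, 8.09, 8.35 and 8.11 in Sey mutants, against 9.42, 9.53 and 9.39 in controls, and replicate 3 was the highest mutant (log2 change -1.29 ± 0.08). Sema4d fell by 0.51 ± 0.06 and the receptor subunit Plxna4 by 0.80 ± 0.10. In the netrin, Slit and Robo list 4 of 18 rose and 2 fell (1 without control replicate 1 or 2). Ntn1, a secreted guidance cue, read 7.82, 7.85, 7.85 and 7.77 in mutants, against 6.15, 6.51 and 6.67 in controls (log2 change 1.38 ± 0.11), and the repellent Slit2 rose by 0.79 ± 0.14. Of the Eph receptors and ephrins 6 of 19 fell and 3 rose (1 rise without control replicate 1 or 3), among them Efna3, which fell by 0.42 ± 0.05. With sex as a term the semaphorin list counted 7 falls and 3 rises, the netrin list 2 rises and 1 fall and the Eph list 2 falls and 1 rise.

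Apical junction genes of radial glia fell in 9 of 38 tested cases and rose in 3 (none without control replicate 1 or 3). Patj, a scaffold of the Crumbs complex, read 5.93, 5.99, 5.75 and 6.11 in Sey mutants, against 6.74, 6.93 and 6.93 in controls, and fell by 0.92 ± 0.09. Ctnnd2, a catenin of adherens junctions and synapses, fell by 0.92 ± 0.09, the claudins Cldn3 and Cldn12 by 0.62 ± 0.05 and 0.51 ± 0.08, and the polarity scaffold Frmd4a by 0.69 ± 0.06. Among matrix genes 7 of 54 rose and 8 fell, shares not far from the 10.7% and 9.13% of all tested genes (4 without control replicate 1, and 5 without mutant replicate 3 or another control). Fbln1, a fibulin of basement membranes, read 9.25, 9.26, 9.15 and 9.24 in mutants, against 8.06, 8.13 and 8.14 in controls (log2 change 1.12 ± 0.05). Col18a1 and Nid2, also of basement membranes, rose by 0.69 ± 0.06 and 0.81 ± 0.12. In the fit with sex 5 apical junction genes fell and none rose, and 4 matrix genes rose and 1 fell.

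Single genes of the patterning pathways changed in both directions, and the lists are to be read against the 10.7% of all tested genes that rose and the 9.13% that fell. In the Wnt list 11 of 48 rose (7 without control replicate 1 or 3) and 8 fell. Sfrp1, a secreted Wnt antagonist of the cortical ventricular zone, read 10.59, 10.67, 10.59 and 10.44 in Sey mutants, against 11.48, 11.54 and 11.68 in controls (log2 change -0.997 ± 0.07), while Wif1, another secreted antagonist, rose from background. The receptor Fzd1 fell by 0.63 ± 0.07. In the BMP and TGF-beta list 7 of 43 rose and 10 fell (6 without control replicate 3). Id1, a target of BMP signalling, read 9.01, 8.79, 9.07 and 9.16 in mutants, against 7.68, 7.98 and 7.89 in controls, and rose by 1.16 ± 0.10 as Id3 did. Their relative Id4 fell by 0.47 ± 0.06, and the receptor Bmpr1b by 0.78 ± 0.09. In the hedgehog list 3 of 19 fell and 1 rose, which is about the share of all tested genes. The co-receptor Gas1 fell by 0.78 ± 0.07 and the transducer Smo rose by 0.40 ± 0.06. With sex as a covariate 8 of the Wnt list rose and 4 fell, 3 of the BMP list rose and 4 fell, and 1 of the hedgehog list rose and 1 fell.

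Of 61 receptor tyrosine kinase and growth factor genes 14 fell (9 without control replicate 2) and 4 rose, but 2 fell and 4 rose with the term for sex. Igfbp5, which binds insulin-like growth factors, read 7.81, 8.37, 7.22 and 7.79 in Sey mutants, against 9.15, 9.29 and 9.25 in controls. The male mutant was the highest, the fall was 1.43 ± 0.22 on the log2 scale, and the call ended with the term for sex (adjusted p = 0.0586). Mdk, the growth factor midkine, rose by 0.38 ± 0.05, and Pdgfra, a receptor of mesenchyme and oligodendrocyte precursors, by 0.80 ± 0.10. In the Hippo list 6 of 20 rose (2 without control replicate 1) and 1 fell (2 without control replicate 3). For this and the growth factor list, the shares of all tested genes were 10.7% that rose and 9.13% that fell. Tead1 and Tead2, the DNA-binding partners of Yap, rose by 0.38 ± 0.09 and 0.39 ± 0.07, and Amot, which binds Yap, by 0.38 ± 0.07, with 1 of its 2 kept probe sets called. The call of Tead1 was lost without control replicate 1 or 2 (adjusted p up to 0.0615). Wwc1, an activator of the pathway, fell by 0.38 ± 0.07. Amot, Tead2 and Wwc1 were not called with the term for sex (adjusted p = 0.0647, 0.0774 and 0.143), with which 1 gene of the list rose and none fell.

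Among transcription factors the POU family split. In contrast to Pou3f4, Pou3f1, a POU factor of cortical neurons, averaged 9.13 ± 0.16 in Sey mutants and 10.40 ± 0.10 in controls (SD, n = 4 and 3), and fell by 1.27 ± 0.09. Its relative Pou3f2 read 9.45, 9.42, 9.29 and 9.32 in mutants, against 10.24, 10.10 and 10.09 in controls (log2 change -0.77 ± 0.07). Sox1, a progenitor factor, rose by 1.24 ± 0.10, Foxm1, a driver of mitotic genes, by 0.76 ± 0.08 and Sox9, a factor of neural stem cells, by 0.39 ± 0.06. In that list 6 of 41 rose and 8 fell, and among nuclear receptors and zinc finger factors 16 of 61 rose and 12 fell. The shares of all tested genes were 10.7% and 9.13%. Rorb, a nuclear receptor of layer 4 neurons, fell by 1.11 ± 0.08, Hivep2 by 0.80 ± 0.07 and the Krüppel-like factors Klf3 and Klf4 by 0.64 ± 0.06 and 0.81 ± 0.08. Myt1, a zinc finger factor of early neurons, rose by 0.66 ± 0.05. Zic1, a zinc finger factor of the dorsal midline and meninges, read 12.58, 12.57, 12.31 and 12.61 in mutants, against 10.99, 11.53 and 11.36 in controls, and rose by 1.22 ± 0.13. Emx2, a homeobox gene of cortical progenitors, rose by 0.72 ± 0.12, and Nr2e1, an orphan receptor of the same cells, fell by 0.49 ± 0.07, the last call ending with the term for sex (adjusted p = 0.0777). The first list counted 4 rises and 6 falls with the term for sex, and the second 9 and 6.

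Among RNA-binding proteins 6 of 43 rose and 10 fell (5 without mutant replicate 4 or control replicate 3, and 6 without control replicate 1 or 2). Rises made up 10.7% of all tested genes and falls 9.13%. Rbfox1, a splicing regulator of maturing neurons, read 9.52, 9.64, 9.51 and 9.45 in Sey mutants, against 10.97, 10.80 and 10.77 in controls (log2 change -1.32 ± 0.07, adjusted p = 1.98e-05), and all 4 kept probe sets were called. Nova1, another neuronal splicing regulator, moved the opposite way, with 9.08, 9.02, 8.93 and 9.03 in mutants, against 8.15, 8.32 and 8.26 in controls (log2 change 0.77 ± 0.06). Elavl1, which is made in all cells, rose by 0.32 ± 0.05 on 1 of its 6 kept probe sets, 3 of the others having a change below 0, and its call ended with the mean of probe sets, while the neuronal Elavl2 fell by 0.39 ± 0.07, a call that ended with the term for sex (adjusted p = 0.112). The list counted 2 rises and 2 falls with the term for sex.

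**Figure D4:**
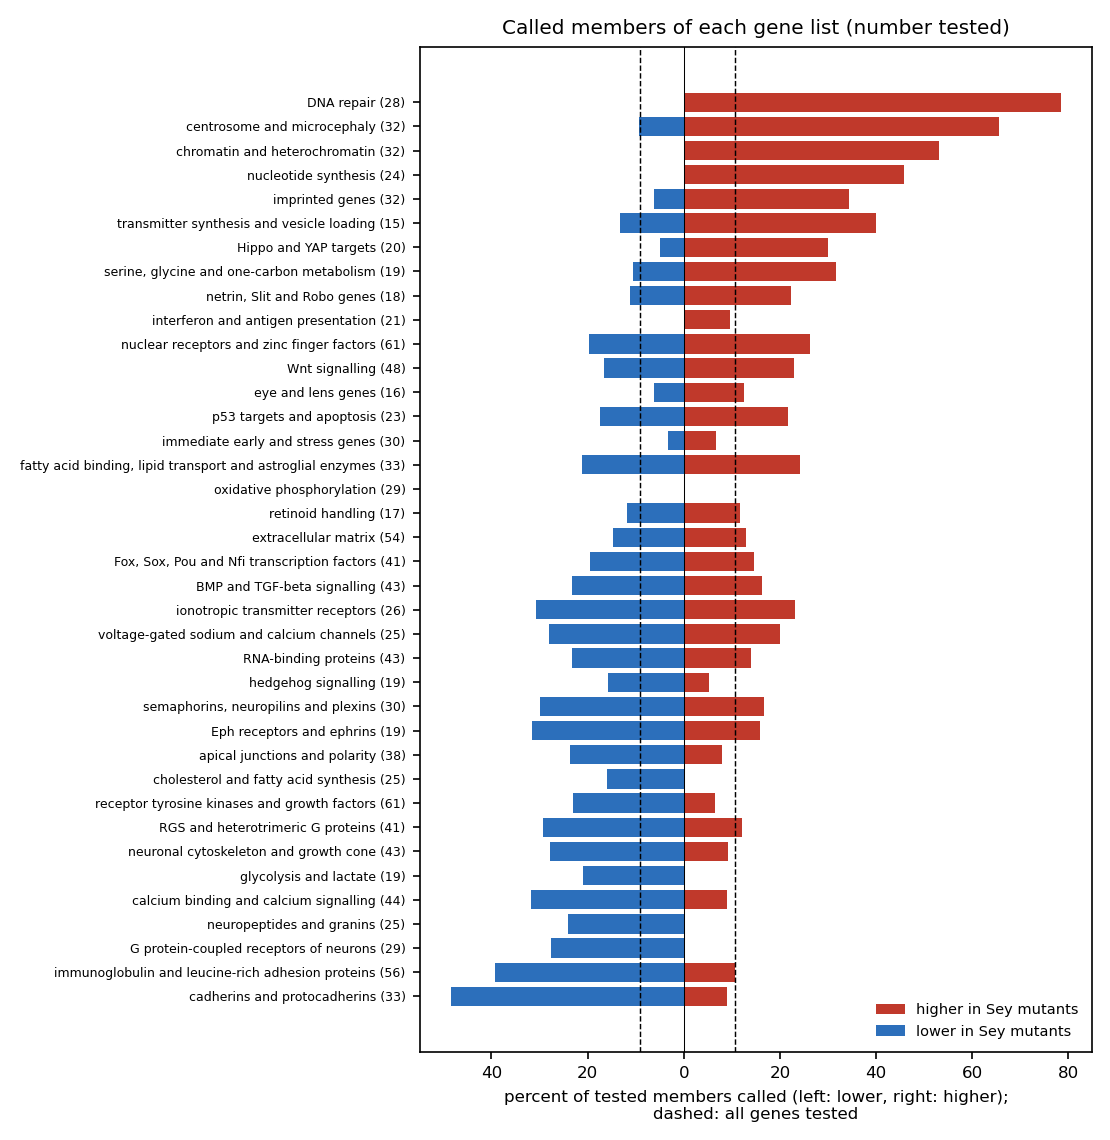
Percent of the tested members of each gene list that were called (x axis), with rises in red to the right of 0 and falls in blue to the left. The number tested stands in parentheses, and the dashed lines give the share of all tested genes that rose (10.7%) and fell (9.13%). The 4 lists of dividing cells have the longest bars to the right, the adhesion lists have the longest to the left, and oxidative phosphorylation has none.

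Imprinted genes, which are expressed from the maternal or the paternal copy only, rose in 11 of 32 tested cases and fell in 2, with a median log2 change of 0.06, where 10.7% of all tested genes rose and 9.13% fell. The 13 called genes are all given here, including those outside the rule for named genes, which were chosen after their values were seen. Neighbours on chromosome 12 rose together. Dlk1, a paternally expressed relative of Notch ligands, read 7.81, 7.91, 7.57 and 7.94 in Sey mutants, against 6.35, 5.91 and 6.39 in controls (log2 change 1.59 ± 0.13). The maternally expressed noncoding transcripts Meg3, Rian and Mirg rose by 0.91 ± 0.14, 0.85 ± 0.06 and 1.29 ± 0.14. Meg3 read 11.74, 11.78, 11.78 and 11.79 in mutants, against 10.90, 11.22 and 10.49 in controls, so that the mutants were nearly equal and the controls spread. Its call ended with the term for sex (adjusted p = 0.0629), and 6 of its 11 kept probe sets were called. In the RefSeq order only Rtl1 among protein-coding genes lies between Dlk1 and Mirg, and it was not tested.

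On chromosome 6, Asb4, a maternally expressed subunit of a ubiquitin ligase, read 9.36, 8.89, 9.03 and 9.37 in Sey mutants, against 5.63, 5.68 and 5.34 in controls, whose lowest array was at background. Sgce, a paternally expressed sarcoglycan of the same cluster, read 9.32, 9.12, 9.24 and 9.10 in mutants, against 8.39, 8.18 and 8.35 in controls (log2 change 0.89 ± 0.08). Ppp1r9a, which lies between them, was not called (log2 change 0.01, adjusted p = 0.931). On chromosome 7, the cell cycle inhibitor Cdkn1c rose by 0.77 ± 0.08, Magel2, of the Prader-Willi region, by 0.67 ± 0.12, and the zinc finger gene Peg3 by 0.42 ± 0.10. Usp29, the neighbour of Peg3, fell by 0.27 ± 0.08 (adjusted p = 0.0421). The call of Usp29 was lost with any array but mutant replicate 2 left out (adjusted p up to 0.153) and with the term for sex (adjusted p = 0.491), and that of Peg3 without mutant replicate 1 or control replicate 1 or 3 (adjusted p up to 0.0869). The smallest rises were of Grb10, an adaptor that restrains insulin signalling (0.32 ± 0.07), and Commd1 (0.26 ± 0.05, adjusted p = 0.116 with the term for sex), both on chromosome 11. Nap1l5 fell by 0.44 ± 0.08. With the term for sex 9 of the list rose and 1 fell, and without mutant replicate 3 or 4 or any 1 control 1 fell.

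**Figure D5:**
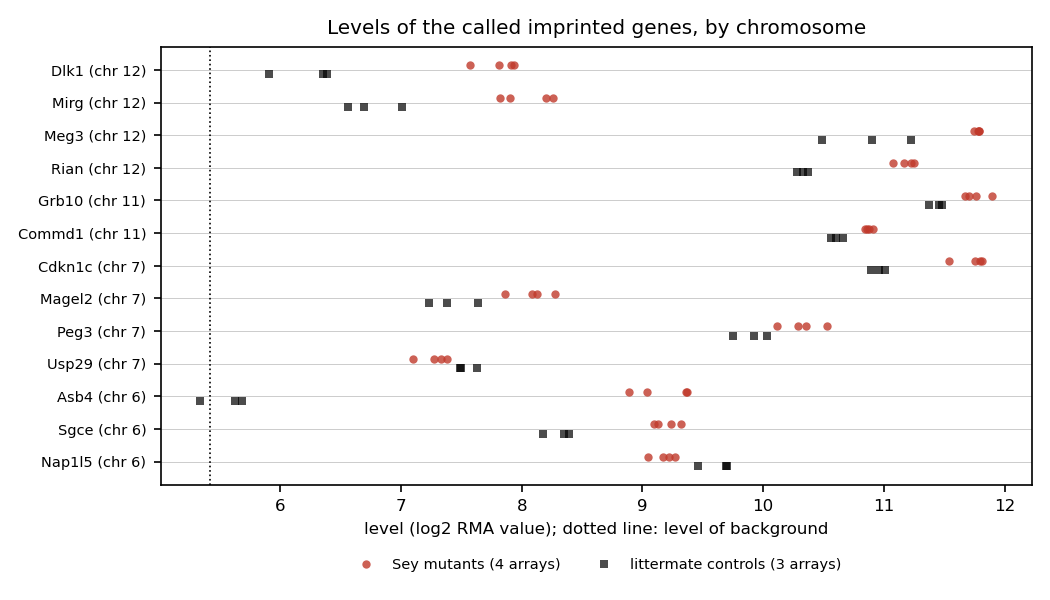
Levels on each array (x axis, log2 RMA value) of the 13 imprinted genes that were called, with their chromosome. Red circles are the 4 Sey mutant arrays, black squares the 3 littermate control arrays and the dotted line is the level of background. The 4 genes of chromosome 12 in the top rows are higher in all mutant arrays than in any control array.

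Few stress and immune genes were called. Of 30 immediate early and stress genes 2 rose (1 without control replicate 2 or 3) and 1 fell (0 without mutant replicate 2 or control replicate 1 or 2). Of 21 interferon and antigen presentation genes 2 rose and none fell, and the rises numbered 0 without control replicate 1 and 1 without mutant replicate 2 or 3 or another control. Of all tested genes 10.7% rose and 9.13% fell. Among p53 targets and apoptosis genes 5 of 23 rose and 4 fell. Bcl2l11, a trigger of apoptosis, read 9.01, 9.55, 9.47 and 9.45 in Sey mutants, against 8.47, 8.53 and 8.41 in controls (log2 change 0.90 ± 0.12), with all 4 kept probe sets called. Gtse1, a protein of dividing cells, rose by 0.54 ± 0.06, while Sesn1 and Plk2, both induced by p53, fell by 0.67 ± 0.06 and 0.79 ± 0.07. The rises of this list numbered 2 without mutant replicate 1 or control replicate 1 or 3, and 3 without another mutant. No stress or interferon gene was called with the term for sex, and 3 p53 targets and apoptosis genes rose and 2 fell.

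Markers of other cells that the dissection could include were read as a group. Their counts are to be read against the 10.7% of all tested genes that rose and the 9.13% that fell. No microglia marker (15 tested) or blood marker (9 tested) was called in limma (without control replicate 3, 3 microglia markers fell, and without mutant replicate 3, 1 rose), and the mean level of the blood list lay between 7.57 and 8.24 in mutants and between 7.78 and 8.11 in controls. Of 21 vascular markers 2 rose (0 or 1 without any 1 array) and 2 fell (1 without mutant replicate 4 or control replicate 1), and their mean level lay between 7.24 and 7.35 in mutants, against 7.29 to 7.36 in controls. Markers of the meninges and mesenchyme were higher on average, with a median log2 change of 0.2. Of 11 tested 4 rose and 2 fell (0 without mutant replicate 3 or control replicate 1 or 2, and 1 without mutant replicate 4). Their mean level lay between 7.37 and 7.57 in mutants, against 6.94 to 7.05 in controls. Zic1 and Pdgfra are among those that rose, beside Crabp2 and Prrx1, which changed by 1.78 and 1.46. The members that fell or were not called are not named here. Markers of the diencephalon and the eminentia thalami rose in 6 of 14 tested cases and fell in 1. Their mean levels lay between 6.53 and 6.64 in mutants, against 5.97 to 6.10 in controls. In 1 of the 14, and in 1 of the choroid plexus markers that follow, every control array was at background. These passed the filter through the mutant arrays. Of 7 choroid plexus markers 1 rose (0 without control replicate 1, 2 without mutant replicate 3). This was Otx2, a homeobox gene also of the forebrain midline and the eye, with 6.82, 7.07, 5.76 and 6.61 in mutants, against 4.90, 5.18 and 5.52 in controls (log2 change 1.36 ± 0.29, adjusted p = 0.0115, 0.0514 with the replicate block, 0.0525 without control replicate 1 and 0.0868 in the fit of all 21 arrays). Lhx1, a LIM homeobox gene of the eminentia thalami, rose by 0.82 ± 0.14. In the fit with a term for sex 4 meningeal and 5 diencephalic markers rose and none fell, and 1 vascular marker rose and 1 fell. The part of such cells in the rises of Angpt1, the retinoid carriers, the basement membrane genes and the transcription factors above was not tested.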

How the data were processed

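Total RNA of rostral cerebral cortex was hybridized to Affymetrix arrays, 1 per sample, after extraction with the RNeasy Micro kit and amplification with MessageAmp Premier, per the labels' protocols. The authors deposited log2 values per probe set, made with RMA per the submitters' processing notes. Which RMA version and settings were used, which arrays were normalized together and which genome build the probe sets refer to is not given in the sources used here. No value was transformed further.

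The platform annotation gave 1 gene for 34945 of the 45101 probe sets, several for 932 and none for 9160, and 64 were controls. Kept were 27402 probe sets above the 40th percentile of non-control probe sets on at least 3 of the 7 arrays, 23838 of them naming 1 gene, and a gene was read from the one of these with the highest mean (13311 genes, 7133 of them with 1 kept probe set). Levels of different probe sets are not compared with each other. Only the 7 arrays of the Sey line were fitted, with limma 3.58.1 under R 4.3.3 (linear model with empirical Bayes variances, 5 residual and 3.33 prior degrees of freedom), two-sided, with Benjamini-Hochberg adjustment over all tested genes. A gene was called, and is said to rise, fall or change, at an adjusted p under 0.05. In a fit of every kept probe set, 676 of 1377 called genes with at least 2 had 2 or more called in the same direction. Besides those stated above, some named genes had 1 kept probe set called of 2 or more. These were Cacna2d2, Commd1, Dut, Fabp3, Fanca, Grb10, Igfbp5, Mirg, Prokr1, Sc5d, Sema4d and Smo. Nav2 and Tpx2 had 2 of 4 called. Errors after a log2 change are standard errors of the fit. For a group wholly at background level, the bound sets the mean of the other group against the higher of the level and the measured value on each array. The bound leaves out how far below background a level lies.

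The 48 gene lists (1647 symbols, 1324 tested) were written from general knowledge, and they, the members and the tests were chosen with earlier results of these data known. Lists are described by counts and medians without a test of the list. The result of 1 list is not reported here. Named are Pax6 and Rlbp1, the 15 largest rises and falls with no overlap and neither group wholly at background, leaving out 83 genes whose results were known beforehand, the 10 widest bounds in each direction, and up to 5 called members of each list with the smallest p. Fewer are printed, and exceptions are named. Promoters, chromosomes and gene order come from RefSeq (GRCm38.p6). Sex was read from Xist and Y-linked genes. Replicate numbers were not used to pair the arrays in the main fit. Deviations of arrays with the same number correlated at 0.088, 0.032 and 0.113, and with so few arrays these values cannot exclude a pairing. The fit was tested on simulated data. The number of arrays limits the precision.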

Additional observations from a re-analysis of the deposited data

Results flagged for a closer look

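For 9 of 178 genes named or plotted, 1 of the 4 mutant arrays lay apart from the others by Dixon's criterion at the 95% level, which chance meets in about 1 of 20 groups. In Sey mutant replicate 1 these were Tmem87a (8.26 on the log2 scale), Elavl2 (12.126), Nr2e1 (8.227), Sc5d (8.515) and Shmt1 (8.238). In replicate 3 they were Fbln1 (9.154), Sema3a (8.345) and Zic1 (12.312), and in replicate 2, the male, Slc1a3 (7.709). Replicate 1 also had the lowest of the estimated array weights (0.446). For Tmem87a the mutant array that stands apart lies with the controls, which read 8.29, 8.46 and 8.42. In the other 8 genes the array that stands apart is still beyond every control array in the direction of the change.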

How the results depend on the processing

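The 2643 calls (1428 higher and 1215 lower in the mutants) kept within 1.5 times their number in the fit of all 21 arrays, without the filter or with a stricter one, with each gene averaged over its probe sets, a variance trend, array weights, quantile normalization, median centring, a looser threshold and each array left out. With the term for sex 1011 genes were called (580 higher, 431 lower), as 242 in place of 501 list members. Each probe set taken alone gave 4060 calls (2200 and 1860) because more features were tested. A change of at least 1.4-fold left 1055 (582 and 473) and 272 list members. Leaving out single arrays gave 1783 (without control replicate 1) to 2563 calls, 959 to 1333 of them higher and 824 to 1230 lower, and 379 to 492 list members. With the replicate number as a block 2041 genes were called, 1900 of them shared, and 4 of the 178 genes, Otx2, Tmem87a, Usp29 and Zfp874a, lost their call. Genes with one group at background numbered 39, against 13 and 133 with background at the 30th and 50th percentile and 36 to 48 with single arrays left out. No named gene reversed. The term for sex ended 21 calls, the fit of all arrays 5 (Cxcl14, Glra2, Otx2, Shmt1, Usp29) and the mean of probe sets 4 (Commd1, Elavl1, Grb10, Usp29). The share of calls that were higher stayed between 51.0% and 57.4%. The cause of these moves was not tested, apart from those that follow from the number of features or the fold required. With 3 control arrays, all male, small changes near background cannot be resolved, and the effect of sex is known from 1 male mutant only.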

Other observations

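Probe sets without a single gene name were fitted with the rest. Of 3564 such probe sets that were kept, 181 rose and 129 fell in the mutants, which is 8.7% of them, against 14.8% of all kept probe sets. The largest rises with both groups well above background were those of 2 probe sets of unnamed transcripts. The first read 10.38, 10.28, 10.19 and 10.04 in Sey mutants, against 7.64, 7.81 and 7.81 in controls (log2 change 2.47 ± 0.09, SE, adjusted p = 1.02e-05, limma over all kept probe sets). The second changed by 2.43 ± 0.10 (adjusted p = 1.23e-05). The largest falls were those of 2 others. One read 6.62, 7.09, 6.34 and 6.63 in mutants, against 9.09, 9.08 and 9.59 in controls. The other read 6.07, 5.79, 4.78 and 4.45 in mutants, against 7.68, 8.11 and 7.29 in controls (log2 change -2.42 ± 0.40, adjusted p = 0.00489), and 2 of its mutant arrays lay below the level of background, so that its size is uncertain. In each of these 4 the groups did not overlap. Their genes are not named in the annotation used here.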
